A study of Mus musculus with 2 samples.

Results

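The 10 genes described here carry out antigen presentation on MHC class I, and they were taken by symbol from the 33696 genes counted in single cells of ulcerated mouse skin. All 10 symbols occurred once in the gene table. They were H2-K1 and H2-D1 (the classical heavy chains), B2m (the light chain), Tap1, Tap2 and Tapbp (peptide transport and loading), Psmb8 and Psmb9 (immunoproteasome subunits), Nlrc5 (a transcriptional activator) and H2-T23 (the heavy chain of the non-classical molecule Qa-1). The study compared lesional skin of mice with ulcerative dermatitis brought on by scratching. One library was labelled wild type. The other was labelled with whole-body overexpression of Has2, a synthase of hyaluronan, and is called the Has2-labelled library here. Both labels give 40 to 50 tape strips of the skin per day on 15 consecutive days, in a text that opens in mid-sentence, so an earlier step may be missing from it. Strain, age, the promoter of the transgene and the number of mice pooled are not given in the sources used here.

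Class I molecules show peptides from inside a cell to CD8+ T cells. Proteasomes cut the peptides, and under interferon Psmb8 and Psmb9 take the place of the constitutive subunits Psmb5 and Psmb6. Tap1 and Tap2 form the transporter that carries peptides into the endoplasmic reticulum, and tapasin, made by Tapbp, holds the empty heavy chain and B2m beside it. Nlrc5 acts at class I promoters, while its relative Ciita acts at class II promoters. Qa-1 shows signal peptides of other class I chains to receptors of NK cells and some T cells. Nearly all nucleated cells make some class I, and interferons raise it in skin as elsewhere.

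The bases upstream of the RefSeq starts (mouse build GRCm38.p6) are shown for the genes whose levels the results turn on. The RefSeq table matched 8 of the 10 genes, not Tap2 or Nlrc5. Capitals mark matches, on either strand, to 5 motifs: CCAAT (the Y box core, bound by NF-Y), GAAANNGAA (an element of interferon regulatory factors), TTCNNNGAA (the gamma-activated site), GGGATTCCC (an NF-κB core) and TGACG (the core of the cAMP response element). The first set holds both heavy chains and their light chain. These are chr17:34000348-34000597 (minus strand), chr17:35262844-35263093 (plus strand) and chr2:122147437-122147686 (plus strand).
H2-K1: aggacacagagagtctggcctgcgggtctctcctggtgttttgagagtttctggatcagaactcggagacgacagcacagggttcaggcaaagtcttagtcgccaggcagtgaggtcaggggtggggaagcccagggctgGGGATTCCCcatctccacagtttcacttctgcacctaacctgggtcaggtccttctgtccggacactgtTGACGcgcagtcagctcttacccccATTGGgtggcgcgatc
H2-D1: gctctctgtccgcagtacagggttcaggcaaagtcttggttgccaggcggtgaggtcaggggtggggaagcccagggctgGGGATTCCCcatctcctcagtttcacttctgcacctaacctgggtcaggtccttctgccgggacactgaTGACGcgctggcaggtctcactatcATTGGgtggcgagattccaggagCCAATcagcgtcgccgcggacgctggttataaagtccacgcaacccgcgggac
B2m: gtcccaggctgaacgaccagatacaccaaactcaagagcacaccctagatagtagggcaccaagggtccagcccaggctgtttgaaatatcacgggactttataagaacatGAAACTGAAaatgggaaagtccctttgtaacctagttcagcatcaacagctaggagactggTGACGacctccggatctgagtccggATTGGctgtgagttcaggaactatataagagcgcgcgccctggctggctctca
With H2-D1 shifted by 60 bases, 166 of 190 bases (87.4%) were the same in both heavy chain sequences. The NF-κB core lay 110 bases before the H2-K1 start and 170 before the H2-D1 start.

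The second set holds Tap1 and Psmb9, which lie head to head, and H2-T23. The 225 bases between the Psmb9 and Tap1 starts, chr17:34187331-34187555, are written on the plus strand, so that Tap1 begins after the last base and Psmb9 runs leftwards from before the first. H2-T23 is chr17:36032702-36032951 on the minus strand.
Psmb9/Tap1: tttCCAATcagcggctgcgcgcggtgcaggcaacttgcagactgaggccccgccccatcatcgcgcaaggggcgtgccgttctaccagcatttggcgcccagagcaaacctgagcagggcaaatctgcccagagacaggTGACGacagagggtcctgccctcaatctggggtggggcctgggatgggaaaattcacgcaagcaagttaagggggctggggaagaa
H2-T23: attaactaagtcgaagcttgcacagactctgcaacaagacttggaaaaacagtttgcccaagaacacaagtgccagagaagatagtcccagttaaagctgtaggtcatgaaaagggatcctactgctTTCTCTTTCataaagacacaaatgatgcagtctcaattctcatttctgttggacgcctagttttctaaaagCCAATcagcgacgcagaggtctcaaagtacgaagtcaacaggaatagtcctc
Of the 8 matched promoters, 7 held CCAAT, which 34.5% of 27025 mouse promoters of the same length hold. The NF-κB core stood in 2 of the 8 and in 0.3145% of all. TGACG was in 5 (17.8% of all), GAAANNGAA in 2 (7.16%) and TTCNNNGAA in 1, Psmb8 (7.14%). The 8 windows are not independent. Tap1 and Psmb9 share the 225 bases shown, where 1 CCAAT and 1 TGACG each count for both genes. Both NF-κB cores lie in the stretch that H2-K1 and H2-D1 have largely in common. A match is a string of letters in this window and says nothing of binding in these cells. Only these fixed patterns were sought, and other forms of the same elements were not. The lack of a GAAANNGAA match in H2-K1 and H2-D1 therefore does not show that they lack an interferon element.

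Depth was alike, with 143875454 UMIs (unique molecular identifiers, each 1 captured RNA molecule) over 16999 wild-type barcodes and 134917708 over 14622 in the Has2-labelled library. Median depth was 4287 and 4320 UMIs per barcode. Cells were given a class by 10 marker genes per class, and all class names mean cells like the named type. This placed 14701 and 12946 cells, and 2136 and 1469 kept cells stayed without a class. Marker genes that played no part in the placing were highest in their own class in all 10 classes shown here, by 1.52 times (endothelial cells, wild type) to 1833 times the next class. Has2 itself checked the labels only in part, at 71.4 CPM (UMIs of the gene per 1000000 UMIs) over all wild-type barcodes and 85.6 CPM over the others. Has2 was 179 and 143 CPM in fibroblasts, 164 and 92.0 CPM in pericytes, and 172 and 329 CPM in keratinocytes (21 and 196 cells). It was 16.2 and 131 CPM in Schwann cells (7 and 68 UMIs), 0.657 and 7.93 CPM in neutrophils and 0.292 and 1.75 CPM in macrophages and monocytes. Between the libraries 79 barcodes were shared. With 1 library per genotype there is no test, and genotype, animal and library cannot be told apart. All intervals are 95% intervals and cover counting error only.

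Each of the 10 members had its highest level in a leukocyte class, in both libraries. T cells were highest for H2-K1, H2-D1, B2m and Nlrc5, dendritic cells for Tap1, Tapbp, Psmb8 and Psmb9, and mast cells with basophils for H2-T23. Tap2 was highest in dendritic cells of the wild-type library (85.7 CPM) and in T cells of the other (65.5 CPM), where the intervals of these classes overlapped. The first and second class also overlapped for Nlrc5 in both libraries, for H2-T23 in the wild-type library (mast cells and dendritic cells), and for Tap1 (dendritic and T cells) and B2m (T and mast cells) in the other. All values are CPM of a class, the member's share of that class's UMIs, so that fewer transcripts and more of other RNA cannot be told apart.

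**Figure D1:**
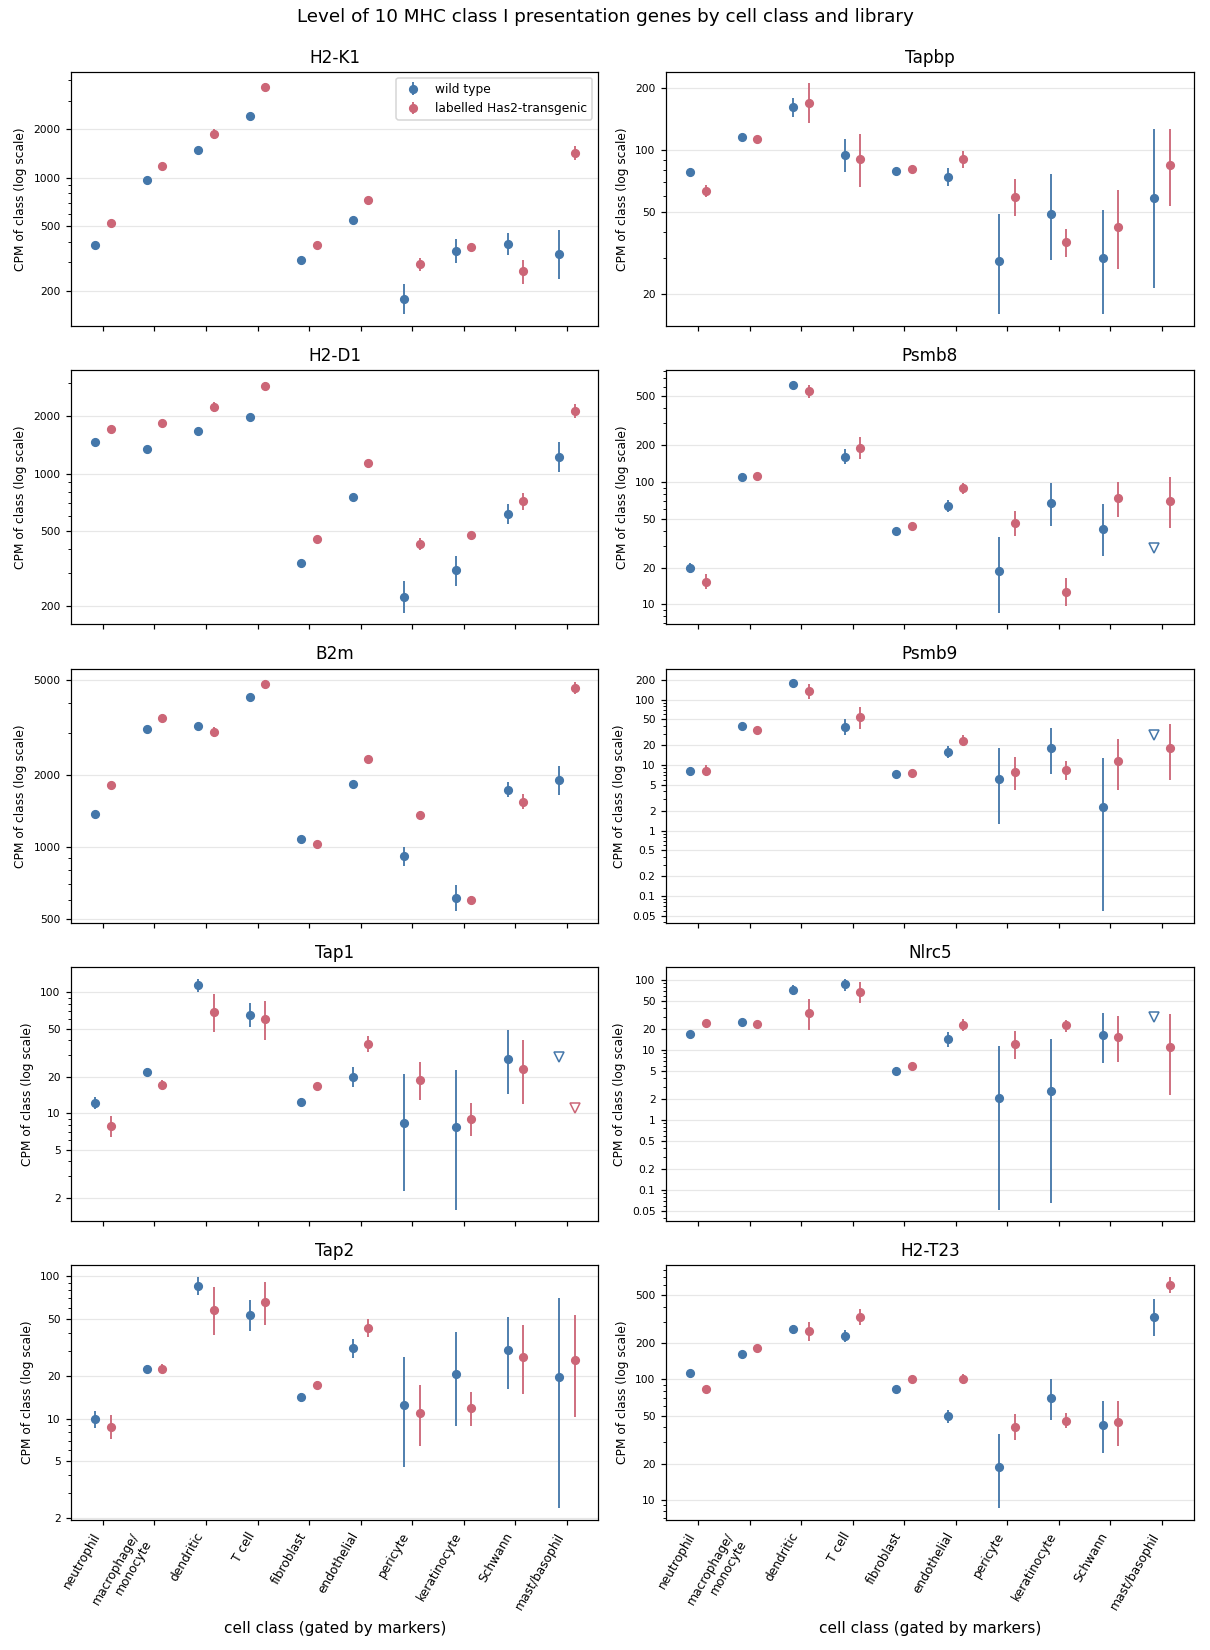
Level of each of the 10 genes (vertical, CPM of the class, log scale) in 10 cell classes (horizontal), wild type in blue and the Has2-labelled library in red. Bars are 95% Poisson intervals, and an open triangle marks the limit set by a count of 0. H2-K1 reached 2398 and 3667 CPM in T cells and 309 and 382 CPM in fibroblasts.

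H2-K1 gives the chain of the classical molecule K. Its level was 2398 CPM (2312 to 2487) in wild-type T cells and 3667 CPM (3504 to 3836) in T cells of the Has2-labelled library. Dendritic cells followed at 1487 and 1867 CPM, macrophages and monocytes at 968 and 1191 CPM, endothelial cells at 549 and 724 CPM, neutrophils at 383 and 527 CPM and fibroblasts at 309 and 382 CPM. Each of these 6 classes was higher in the Has2-labelled library, and the order of the 6 was the same in both. In the wild-type library the intervals of Schwann cells, neutrophils, keratinocytes, mast cells and fibroblasts ran into one another, so their order is not fixed.

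H2-D1, the other classical heavy chain, had a different order. Neutrophils stood at 1467 and 1713 CPM, beside macrophages and monocytes at 1349 and 1850 CPM. T cells had 1985 and 2897 CPM, endothelial cells 749 and 1131 CPM and fibroblasts 336 and 450 CPM. The share of H2-K1 among UMIs of both heavy chains shows this gap. It was 20.7% (20.3 to 21.1) in wild-type neutrophils and 23.5% (23.1 to 24.04) in those of the other library. T cells had 54.7% and 55.9%, fibroblasts 47.9% and 45.9%, and macrophages and monocytes 41.8% and 39.2%. Neutrophils thus held mostly H2-D1 among their classical heavy chain UMIs in both libraries, and T cells did not. Of 90-base windows in GENCODE M21 transcripts, 1.54% of those of H2-K1 and 4.25% of those of H2-D1 occur in another gene, so some reads may be lost or moved. The windows cover whole transcripts and the kit is a 5′ kit, so the share of reads affected was not measured.

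B2m, the light chain that every class I heavy chain needs, was highest in T cells at 4240 and 4808 CPM. It was 3119 and 3467 CPM in macrophages and monocytes, 1840 and 2330 CPM in endothelial cells, 1370 and 1819 CPM in neutrophils and 1074 and 1032 CPM in fibroblasts. Mast cells with basophils had 1905 CPM in 21 wild-type cells and 4637 CPM in 41 cells of the Has2-labelled library. B2m UMIs per heavy chain UMI were lowest in neutrophils of the wild-type library (0.741) among neutrophils, macrophages and monocytes, dendritic cells, T cells, fibroblasts and endothelial cells (the 6 main classes), and highest in fibroblasts (1.67). In the Has2-labelled library the ratio was 0.812 in neutrophils, 1.24 in fibroblasts, 1.26 in endothelial cells and 0.733 in T cells. It was lower there than in the wild-type library in 5 of these 6 classes, the exception being neutrophils.

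**Figure D2:**
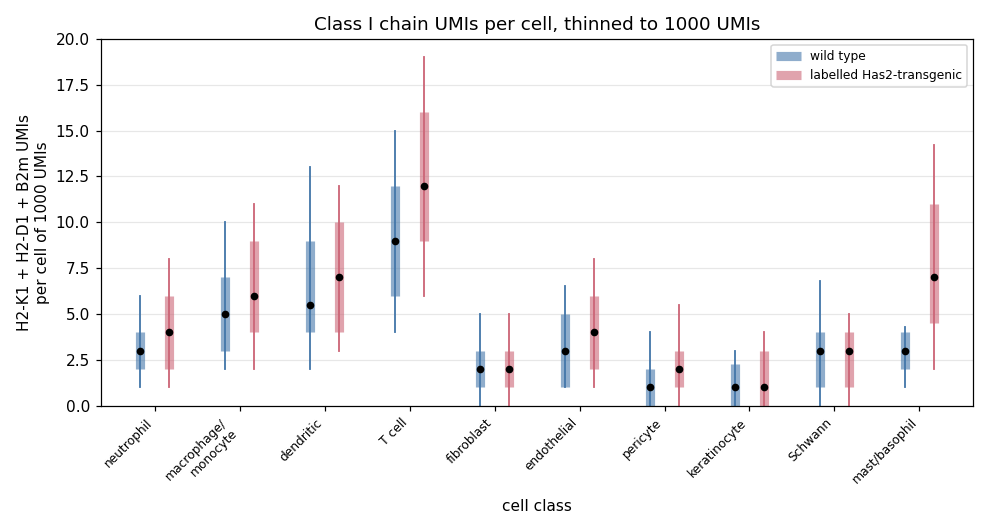
UMIs of H2-K1, H2-D1 and B2m together per cell (vertical) after each cell was thinned to 1000 UMIs, by class (horizontal) and library (wild type blue, labelled Has2-transgenic red). The dot is the median cell, the thick bar spans the middle 50% of cells and the thin line the middle 80%. The median T cell held 9 and 12 such UMIs and the median fibroblast 2 and 2.

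Cells within a class also differed. After thinning to 1000 UMIs, T cells held a mean of 9.26 and 12.3 UMIs of the 3 chains, with an SD over cells of 4.62 and 5.31. No T cell of the 267 and 140 deep enough for this was at 0, which allows a share of up to 1.12% and 2.14%. Fibroblasts held a mean of 2.17 and 2.05, and 24.4% and 22.6% of them had none. Neutrophils held 3.21 and 4.17, and 7.86% and 6.08% of them had none. Thinning left out 212 and 264 neutrophils and 142 and 59 fibroblasts. Before thinning, the mean per 1000 UMIs was 3.21 and 4.10 in neutrophils.

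Tap1, an ATP-binding subunit of the peptide transporter, was 115 and 68.6 CPM in dendritic cells and 65.0 and 59.7 CPM in T cells. It was 22.01 and 17.2 CPM in macrophages and monocytes, 19.9 and 37.6 CPM in endothelial cells, 12.3 and 16.7 CPM in fibroblasts and 12.1 and 7.77 CPM in neutrophils. Endothelial cells thus stood beside macrophages in the wild-type library, and above them with no overlap of intervals in the other. Tap2, the other subunit of the transporter, was lowest in neutrophils in both libraries, at 9.89 and 8.79 CPM. Tapbp ranged from 63.5 to 171 CPM over the 6 main classes and both libraries. No Tap1 UMI was seen in mast cells with basophils, which allows up to 29.2 and 11.01 CPM.

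Psmb8, the immunoproteasome subunit that replaces Psmb5, was 623 and 547 CPM in dendritic cells, 161 and 191 CPM in T cells and 19.9 and 15.4 CPM in neutrophils. Psmb9, which replaces Psmb6, was 180 and 135 CPM in dendritic cells and 8.06 and 8.24 CPM in neutrophils. Taken against the subunits they replace, Psmb8 and Psmb9 made up 62.0% (60.2 to 63.7) of the UMIs of all 4 in wild-type dendritic cells and 54.4% (50.3 to 58.4) in the others. The share was 39.5% and 41.2% in T cells and 24.1% and 23.99% in macrophages and monocytes. It was 13.2% (12.0 to 14.4) and 21.97% (20.3 to 23.7) in endothelial cells, 10.6% (10.3 to 11.1) and 13.9% (13.5 to 14.4) in fibroblasts, and 21.4% (19.9 to 22.9) and 16.4% (14.8 to 18.2) in neutrophils. In UMIs summed over cells, the share was thus higher in the Has2-labelled library in endothelial cells and fibroblasts and lower in dendritic cells and neutrophils, with intervals that did not meet. In neutrophils Psmb8 beside Psmb5 fell from 23.7% to 15.9%, with Psmb5 itself at a ratio of 1.27. Psmb9 beside Psmb6 did not fall there (17.2% and 17.5%). The Has2-labelled dendritic class had 53 cells, under the 100 set for comparing libraries, and 1 cell held 15.6% of its 167 Psmb6 UMIs. In fibroblasts Psmb5 and Psmb6 had ratios of 0.767 and 0.864 between the libraries, beside 1.11 for Psmb8 and 1.05 for Psmb9.

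**Figure D3:**
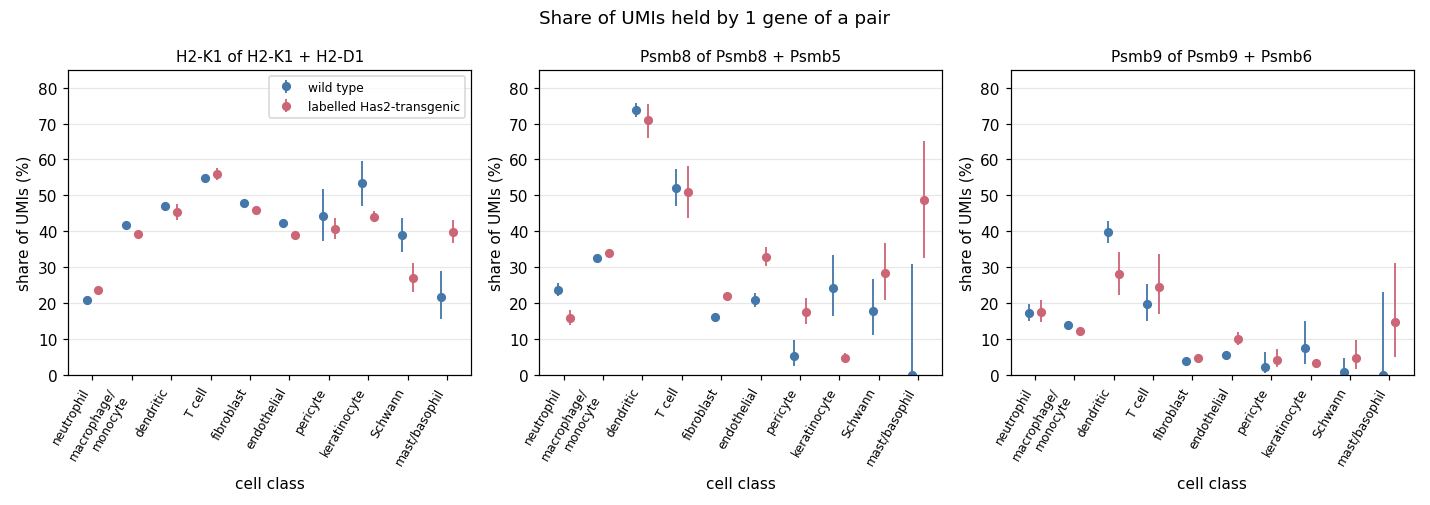
Share of UMIs (vertical, %) of H2-K1 among both classical heavy chains, of Psmb8 beside Psmb5, and of Psmb9 beside Psmb6, by class (horizontal) and library (wild type blue, labelled Has2-transgenic red), with 95% binomial intervals. Neutrophils lie lowest for H2-K1 among the 6 main classes, at 20.7% and 23.5%, and dendritic cells highest for Psmb8, at 73.9% and 70.9%.

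Rare classes gave wide intervals. The share of Psmb8 and Psmb9 was 3.88% (2.02 to 6.69) in 29 wild-type pericytes and 11.9% (9.67 to 14.4) in 106 of the other library. Keratinocytes had 16.4% in 21 wild-type cells, where 1 cell held 84.6% of the 26 Psmb8 UMIs, and 3.94% (3.21 to 4.79) in 196 cells of the Has2-labelled library.

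Nlrc5, the activator of class I promoters, was 86.4 and 67.5 CPM in T cells, 72.2 and 33.3 CPM in dendritic cells and 5.06 and 5.94 CPM in fibroblasts. Dendritic and T cells did not differ beyond their intervals in either library. H2-T23 was 330 and 606 CPM in mast cells with basophils (34 and 165 UMIs), 229 and 328 CPM in T cells, 259 and 249.4 CPM in dendritic cells and 49.5 and 101 CPM in endothelial cells. Of its transcript windows 4.01% occur in another gene.

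Levels also varied between subsets of a class. Neutrophils with at least 4 of 10 interferon response markers (237 and 165 cells) had 71.0 (56.1 to 88.5) and 46.6 (29.5 to 69.9) CPM of Tap1. Neutrophils with at most 1 such marker (4998 and 4189 cells) had 7.47 and 5.49 CPM. Psmb8 was 73.7 and 42.5 CPM in the first set and 15.2 and 11.4 CPM in the second, and B2m was 2652 and 2977 CPM against 1216 and 1622 CPM. All 3 genes were higher in the marker-rich cells in both libraries, with intervals apart. These cells were also a little deeper, at a median of 3521 and 2442 UMIs against 3010 and 2062.

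Dendritic cells with Ccr7, the receptor that guides them to lymph nodes, made up 200 of 223 and 46 of 53 dendritic cells. The class holds only cells picked by its gate markers, so this share depends on those markers. It is not a share of all dendritic cells in the skin. The class levels, among them the high Psmb8, Psmb9, Tap1 and Tapbp, likewise describe only the cells that the gate picked. In the wild-type library the cells with Ccr7 had 656 CPM of Psmb8 against 285 CPM in the 23 without Ccr7. Tap1 was 120 (106 to 136) against 62.9 (33.5 to 107) CPM, where the intervals overlap. Macrophages with Folr2 and Mrc1, genes of resident cells, had 3631 and 4145 CPM of B2m, and cells with Chil3 and Ly6c2, genes of monocytes, had 3153 and 3463 CPM. Macrophages with at least 5 UMIs of the protease gene Ctsk numbered 118 in the Has2-labelled library and 18 in the wild-type one. In those 118 cells B2m was 2155 CPM and H2-T23 was 95.9 CPM, against 3467 and 182 CPM in all macrophages and monocytes of that library. The 118 cells were also deeper, at a median of 15376 UMIs against 7264 in the class.

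Between the libraries, the members were compared in the 5 classes with at least 100 cells in each. A member counted as higher or lower when the ratio of its CPM, the Has2-labelled library over wild type, was at least 5/4 or at most 0.8, with at least 50 UMIs over both libraries, and all 10 reached that count in all 5 classes. Shares over all genes are given at this limit only. Counts at 1.5-fold, after thinning or with cells left out have no such share beside them and cannot be set against a background. H2-K1 and H2-D1 had ratios above 1 in all 5 classes, from 1.23 to 1.53 for H2-K1 and from 1.17 to 1.51 for H2-D1. They stayed above 1 under 10 alternatives of scaling, depth, gate and cell filters, with 1 exception. This was H2-K1 in endothelial cells after thinning (0.961, 0.771 to 1.198, from 166 and 168 thinned UMIs). The alternatives that left out cells with markers of another class are not among these 10. Strain is not given, so it is not known whether the heavy chain sequences of both libraries match the build used for counting alike. The other 8 members had no common direction.

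**Figure D4:**
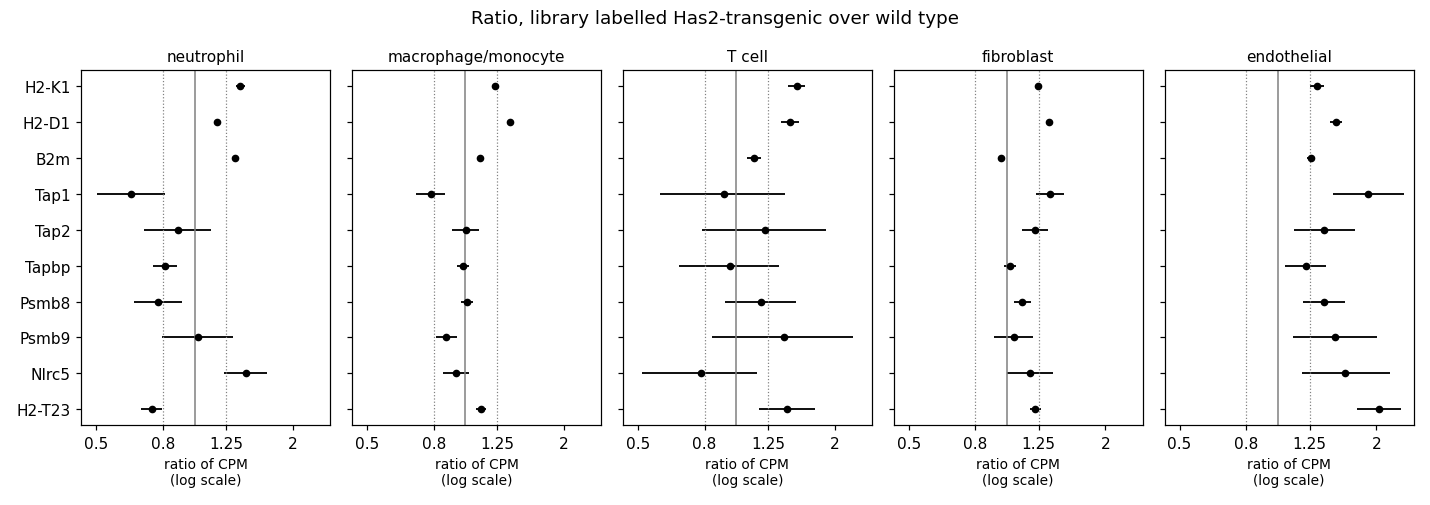
Ratio of CPM in the Has2-labelled library to that in wild type (horizontal, log scale), for each of the 10 genes (vertical) in 5 cell classes, with exact 95% intervals for counting error. Dotted lines mark 5/4 and 0.8. Endothelial cells have 9 genes past the upper line, and neutrophils have 3 past each line.

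In endothelial cells 9 of 10 members were higher in the Has2-labelled library and none was lower. Of all 9937 genes with enough UMIs in endothelial cells, 22.9% were higher and 19.5% lower. H2-T23 went from 49.5 to 101 CPM (2.04-fold, 1.75 to 2.38), Tap1 from 19.9 to 37.6 CPM (1.89-fold, 1.47 to 2.43) and Nlrc5 from 14.2 to 22.9 CPM (1.61-fold, 1.18 to 2.20). H2-D1 was 1.51-fold higher (1.45 to 1.57), Psmb9 1.49-fold (1.11 to 2.01), Tap2 1.39-fold, Psmb8 1.38-fold, H2-K1 1.32-fold and B2m 1.27-fold. Tapbp, at 1.21-fold (1.06 to 1.40), stayed inside the limit. The median log2 ratio of the 10 was 0.52, beside 0.00298 over all genes tested. With a limit of 1.5-fold 4 members were higher, and the share over all genes at that limit is not given here. After thinning each cell to 1000 UMIs only H2-K1, H2-D1 and B2m reached 50 UMIs, of which H2-D1 (1.54) and B2m (1.31) were higher. The thinned ratio was 1.97 (1.01 to 4.03) for H2-T23 and 2.47 (0.826 to 8.85) for Tap1.

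Other genes of the pathway did not all follow in endothelial cells. The constitutive subunits Psmb5, Psmb6 and Psmb7 were all lower, at 0.740, 0.772 and 0.776. Of 12 genes of peptide supply and loading 5 were lower, among them the proteasome assembly factor Pomp (0.592) and the chaperone Calr (0.722), and 1 was higher, Tapbpl (1.33, 0.835 to 2.13). Of 11 measured interferon response genes 10 were higher, and the median of the 11 log2 ratios was 1.10. Rsad2 went from 5.12 to 38.3 CPM (7.47-fold, 4.96 to 11.7) and Iigp1 from 57.1 to 160 CPM (2.80-fold, 2.45 to 3.22). Irf1, an interferon-induced activator of class I genes, went from 36.6 to 113 CPM (3.09-fold, 2.62 to 3.67). Class II genes went the other way, with 4 of 5 lower, such as H2-Eb1 from 33.6 to 4.45 CPM (0.133, 0.0790 to 0.211). Ciita had 0 and 2 UMIs in endothelial cells.

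The endothelial class also differed between the libraries in its make-up. Cells with a UMI of Ackr1 or Selp, genes of venules, were 119 of 261 (45.6%, 39.4 to 51.8) in the wild-type library and 185 of 268 (69.0%, 63.1 to 74.5) in the other. Their median depth was 25972 and 16058 UMIs. Within them 9 members were higher and none lower, beside 21.4% higher and 21.8% lower of 9153 genes, with Tap1 at 2.05-fold (1.52 to 2.77) and H2-T23 at 2.02-fold (1.70 to 2.40). In the 142 and 83 endothelial cells with neither gene, 4 members were higher and 1 lower, beside 27.4% and 25.0% of 6676 genes. There the intervals of the higher Tap1, Tapbp and H2-T23 and of the lower Psmb9 include 1. These cells had H2-K1 at 1.03-fold (0.925 to 1.14) and H2-D1 at 1.31-fold (1.21 to 1.42). The difference between these sets was not tested, and they were chosen after the class values were seen.

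Markers of other cells differed within the endothelial class too. The 3 pericyte check markers summed to 6.45 and 50.3 CPM, 4 macrophage markers to 60.1 and 106 CPM, 4 neutrophil markers to 755 and 633 CPM, 3 dendritic cell markers to 14.2 and 35.8 CPM and 4 fibroblast markers to 212 and 183 CPM. The part of the last 4 sets in the result was not tested. Without the endothelial cells that held a pericyte check marker (245 and 248 cells left), 9 members were still higher, with Tap1 at 1.75-fold. Without those that held any of 13 pericyte markers, some of which endothelial cells also make, only 52 and 55 shallow cells were left, with medians of 2956 and 5844 UMIs. There 5 members reached 50 UMIs, 1 was higher and 1 lower, and B2m was 0.927-fold.

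In fibroblasts 2 of 10 members were higher and none lower, beside 25.0% higher and 22.1% lower of all 14688 genes tested. These were Tap1, from 12.3 to 16.7 CPM (1.35-fold, 1.23 to 1.49), and H2-D1, from 336 to 450 CPM (1.34-fold, 1.32 to 1.37). H2-K1 (1.24), H2-T23 (1.22) and Tap2 (1.22) lay just under the limit, and B2m was 0.961-fold (0.9501 to 0.972). After thinning 1 member was higher, Tap1 (1.91, 1.16 to 3.24). Thinned H2-D1 was 1.19 (1.09 to 1.30), H2-K1 1.08 (0.983 to 1.19) and B2m 0.836 (0.793 to 0.881). Before thinning the median log2 ratio of the 10 was 0.26, beside -0.04 over all genes. Of 8 other heavy chains 6 were higher, among them H2-Q7 (1.51) and H2-Q4 (1.43). Irf1 was 14.0 and 38.3 CPM (2.73-fold, 2.51 to 2.97), and of 15 interferon response genes 3 were higher, among them Gbp3 (1.70) and Irgm1 (1.41), and 2 lower, Isg15 (0.598) and Rsad2 (0.705). Macrophage check markers in fibroblasts summed to 24.1 and 47.3 CPM and neutrophil ones to 362 and 252 CPM, and their part in these ratios was not tested.

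Fibroblasts with at least 5 UMIs of Postn, a gene of wound myofibroblasts, made up 250 of 2234 (11.2%) wild-type and 1388 of 2431 (57.1%) other fibroblasts. Within them all 10 members were higher in the Has2-labelled library, beside 26.0% higher and 36.7% lower of 13210 genes, from 1.57-fold for Psmb9 (1.16 to 2.16) to 2.72-fold for Nlrc5 (1.79 to 4.32). H2-D1 was 182 and 422 CPM (2.33-fold, 2.22 to 2.44), and B2m was 526 and 925 CPM (1.76-fold, 1.71 to 1.81). Fibroblasts with at least 5 UMIs of Il6 made up 70.1% and 58.7%. In these 5 members were higher and none lower, beside 20.7% and 27.2% of 13856 genes, and H2-D1 was 340 and 508 CPM (1.49-fold, 1.46 to 1.53). In both libraries all 10 levels were lower in the Postn set than in the Il6 set, with overlapping intervals for some genes, such as Nlrc5, in the Has2-labelled library, and the sets share cells. The Postn cells were deeper, at a median of 43380 UMIs, in the wild-type library than the 29734 of the other. These sets were chosen after the class values were seen.

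In T cells 4 of 10 members were higher, H2-K1 (1.53-fold, 1.44 to 1.62), H2-D1 (1.46-fold, 1.37 to 1.56), H2-T23 (1.43-fold, 1.18 to 1.74) and Psmb9 (1.40-fold, 0.841 to 2.27). Nlrc5 was lower (0.780-fold, 0.516 to 1.15), and the last 2 of these intervals include 1. With a limit of 1.5-fold 1 member was higher and 0 lower. Of all 5326 genes tested in T cells 18.9% were higher and 22.9% lower. The 6 members other than the 3 chains and H2-T23 had between 75 and 294 UMIs and were poorly measured. T cells without Foxp3, the factor of regulatory T cells, had H2-K1 at 2404 and 3510 CPM (1.46-fold, 1.36 to 1.56). Foxp3 was seen in 24 and 44 T cells, where H2-K1 was 2356 and 3982 CPM. Neutrophil check markers in T cells summed to 281 and 98.3 CPM and dendritic cell ones to 65.0 and 112 CPM, those of endothelial cells and keratinocytes were at 0, and the part of the first 2 in these ratios was not tested.

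In macrophages and monocytes 1 member was higher, H2-D1 from 1349 to 1850 CPM (1.37-fold, 1.36 to 1.39), and 1 was lower, Tap1 from 22.01 to 17.2 CPM (0.784-fold, 0.707 to 0.868). Over all 12649 genes tested 25.1% were higher and 14.2% lower. The other 8 ratios lay between 0.873 (Psmb9) and 1.23 (H2-K1). Class II genes stood apart from these, with 5 of 6 higher, such as H2-Aa from 548 to 1107 CPM (2.02-fold, 1.99 to 2.05). The cells with Folr2 and Mrc1 had H2-D1 at 1.37-fold and Tap1 at 0.871-fold, and those with Chil3 and Ly6c2 had 1.39-fold and 1.02-fold. Dendritic cell check markers in the class summed to 16.0 and 26.1 CPM and neutrophil ones to 622 and 413 CPM, and their part in these ratios was not tested.

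In neutrophils 3 members were higher, Nlrc5 (1.43-fold, 1.23 to 1.67), H2-K1 (1.38-fold, 1.33 to 1.42) and B2m (1.33-fold, 1.31 to 1.35). Another 3 were lower, Tap1 from 12.1 to 7.77 CPM (0.641-fold, 0.504 to 0.809), H2-T23 from 112 to 82.7 CPM (0.739-fold, 0.687 to 0.794) and Psmb8 from 19.9 to 15.4 CPM (0.774-fold, 0.651 to 0.917). Of all 9753 genes tested 23.6% were higher and 22.8% lower, so neither count of members is far from the background. With a limit of 1.5-fold 0 were higher and 1 lower. After thinning Psmb8 was inside the limits (0.9002, 0.642 to 1.26), and Tap2 was lower (0.683, 0.429 to 1.07). Thinned Tap1 was 0.689 (0.466 to 1.01). Of 12 interferon response genes 9 were lower, such as Ifi47 (0.453) and Zbp1 (0.536), and none was past the upper limit. Isg15 (1.18, 1.14 to 1.22) and Rsad2 (1.08, 1.01 to 1.15), with the most UMIs of these genes, lay above 1 inside the limit. Irf1 was higher (1.60). Median depth was 3114 and 2094 UMIs, and 4 fibroblast check markers summed to 63.0 and 439 CPM in these cells. Without the neutrophils that held one of those markers the counts were again 3 and 3, with Tap1 at 0.616-fold.

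Among the signals and partners of class I, Ifng, a known inducer of these genes, had 15 UMIs in 10 of 270 wild-type T cells and 2 UMIs in 2 of 142 others. Outside T cells it had 3 UMIs, in fibroblasts of the Has2-labelled library, among the 6 main classes. Ifnb1, a type I interferon, had 85 and 33 UMIs in fibroblasts and 58 and 35 in macrophages and monocytes. Ciita, the class II counterpart of Nlrc5, was 127 and 125 CPM in dendritic cells and at most 2.47 CPM in the other 5 main classes. Cd8b1, a chain of the CD8 co-receptor that binds class I, was seen in 13 of 270 and 6 of 142 T cells (54 and 12 UMIs), beside 3 of 2234 and 0 of 2431 fibroblasts at several times the depth. Pirb, an inhibitory receptor for class I on myeloid cells, was 202 and 167 CPM in neutrophils and 183 and 195 CPM in macrophages and monocytes. Klrd1, a subunit of the receptor that reads Qa-1, was higher in dendritic cells (563 and 493 CPM) than in T cells (71.6 and 42.4 CPM), and its partner Klrc1 was 25.2 and 20.8 CPM in dendritic cells and 93.0 and 88.7 CPM in T cells.

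Over the 10 sums of 5 classes and 2 libraries, the members' levels followed their common mean to different degrees. Pearson's r of log2(CPM + 1) with the mean of the other members was 0.972 for H2-K1, 0.956 for B2m and 0.947 for Psmb9, and lowest for H2-D1 (0.694) and Tapbp (0.608). Of 3804 genes with at least 100 CPM in some sum, the 5 most like the members' mean were Zfand6 (r = 0.982), Phf3 (0.980), Arl6ip1 (0.979), Pik3ca (0.969) and Cep350 (0.968). The 10 points share libraries and fall into 5 classes, so these values are a description.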

How the data were processed

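Single cells of ulcerated skin were captured with a 10x Genomics GEM-X 5′ kit, per the labels' protocols. The molecule is labelled total RNA in the wild-type sample but polyA RNA in the Has2-labelled one. Values deposited are whole UMI counts for each gene in each barcode. The authors' tool was Cell Ranger 9.0.1 with build GRCm39, per the submitters' processing notes. The members and gene lists were chosen with earlier results of these data known.

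Barcodes under 200 genes (137 wild-type, 150 Has2-labelled) or over 15% mitochondrial UMIs (25 and 57) were left out. A cell took the class with most of its 10 gate markers detected, at least 3 and at least 2 more than any other class. No doublet caller was run, and 526 and 342 cells with at least 3 markers of more than 1 class stayed without a class. UMIs were summed per class and library and divided by the class total (CPM). Sums have exact Poisson, ratios exact conditional and shares exact binomial (Clopper-Pearson) intervals, checked on simulated counts. A count of 0 allows up to 3 counts. With 1 library per genotype no test was run. Classes with at least 100 cells in each library were compared, and levels are given for classes with at least 20. Named genes are all members, and of each other list those with the largest ratios at 100 UMIs or more, plus genes needed to describe a list. Cells were thinned to 1000 UMIs with seed 1. Alternatives changed the scaling, gate, cell filters, fold and UMI minimum, and left out cells with markers of another class; subsets of classes and the last kind were chosen after seeing the data. Near-identical transcripts were sought in the GENCODE M21 set, and sequences come from RefSeq on GRCm38.p6, not the build of the counts. Python 3.11.15, numpy 2.4.6 and scipy 1.17.1 were used.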

Additional observations from a re-analysis of the deposited data

Results flagged for a closer look

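For 3 genes the ratio was at least 5/4 in some cell classes and at most 0.8 in others, each with an interval that excludes 1. The difference between classes was not tested. Tap1 was higher in the Has2-labelled library in endothelial cells (1.89) and fibroblasts (1.35) and lower in neutrophils (0.641) and macrophages and monocytes (0.784). In neutrophils thinning gave 0.689 (0.466 to 1.01) for Tap1. Tap1 was 0.656 (0.393 to 1.06) in neutrophils with at least 4 interferon markers and 0.735 (0.521 to 1.025) in those with at most 1. H2-T23 was higher in endothelial cells (2.04) and T cells (1.43) and lower in neutrophils (0.739, after thinning 0.787). In the same 2 sets of neutrophils H2-T23 was 1.09 (0.869 to 1.37) and 0.693 (0.630 to 0.761). Psmb8 was higher in endothelial cells (1.38) and lower in neutrophils (0.774), where thinning gave 0.9002 (0.642 to 1.26). Nlrc5 was higher in neutrophils and endothelial cells and lower in T cells (0.780), but the last interval (0.516 to 1.15) includes 1. Of the measured interferon response genes, 10 of 11 were higher in endothelial cells and 9 of 12 lower in neutrophils. Isg15 (1.18) and Rsad2 (1.08) lay above 1 in neutrophils. The part of interferon response genes in the ratios of the members was not tested.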

How the results depend on the processing

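Counting intervals leave out the spread between animals, which 1 library per genotype cannot show. No paired analysis was possible because each genotype had 1 library, and for the same reason no replicate could be left out. Thinning to 1000 UMIs leaves few counts of rare transcripts. All 10 members were highest in a leukocyte class under every alternative, in both libraries. Of 136 counts of members past the fold 119 stayed within 1.5 times and 17 moved. Of 530 ratios 472 stayed the same and 54 moved, and 4 turned over among those past the fold. Thinning gave 0.961 for H2-K1 in endothelial cells. After thinning the counts were 2 higher members in endothelial cells, 1 in fibroblasts and 0 lower in T cells. Median ratio scaling and a minimum of 200 UMIs also gave 0 lower in T cells. A mean of per-cell CPM gave 1 higher and 1 lower in fibroblasts. A fold of 1.5 left 0 higher and 1 lower in neutrophils, 0 and 0 in macrophages and monocytes, 1 and 0 in T cells, 0 higher in fibroblasts and 4 in endothelial cells. The share of all genes past the limit is not given for these settings, so these counts have no background beside them.

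The immunoproteasome share moved beyond its interval as follows. By the mean of per-cell CPM it was 15.2% and 16.3% in wild-type and Has2-labelled fibroblasts and 15.8% and 25.5% in endothelial cells. Thinning gave 19.8% in wild-type neutrophils, 14.8% in wild-type fibroblasts, and 23.4% and 27.9% in Has2-labelled macrophages and endothelial cells. A gate of 4 markers gave 24.7% in Has2-labelled macrophages. Without the deepest 5% of cells it was 19.3% in wild-type neutrophils and 11.7% and 15.2% in fibroblasts. Without endothelial cells that held any pericyte marker, an alternative chosen after seeing the data, 1 member was higher and 1 lower, B2m was 0.927, Psmb8 0.9997 and Psmb9 0.923, and the share was 17.4% and 19.7%. That alternative keeps 52 and 55 cells. The causes were not tested.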

Other observations

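These genes were picked after their values were seen. H2-Q10, a class I heavy chain gene known for a secreted product of the liver, was 95.6 and 134 CPM in neutrophils, the class with the lowest H2-K1 among the 6 main classes, save fibroblasts. It was 0.808 and 0.775 CPM in macrophages and monocytes, and 10.3 and 7.73 CPM in fibroblasts. H2-Q10 is among the genes that share transcript windows with H2-K1 most often. H2-Q7 had the reverse pattern, at 577 and 740 CPM in T cells and 9.15 and 8.32 CPM in neutrophils. Class II genes in T cells were 1.71-fold to 1.93-fold higher in the Has2-labelled library for the 4 measured, while dendritic cell check markers in those cells summed to 65.0 and 112 CPM; their part in the result was not tested.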
